A study of Mus musculus with 7 samples.

Results

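Leukocyte adhesion molecules and their integrin partners were described in mouse NSCG gliomas by droplet single-cell RNA sequencing. The 10 members were taken by gene symbol out of 32285 measured genes. They are the immunoglobulin-family ligands Icam1, Icam2 and Vcam1, the endothelial selectins Sele (E-selectin) and Selp (P-selectin), and the integrin subunits Itgal, Itga4, Itgb1, Itgb2 and Itgam. NSCG is a mouse glioma line labelled NSCG-mCherry (EGFRvIII+, Arf/Ink4a-/-), which was grown in brains of C57BL/6 mice aged 7 to 10 weeks, and the hosts are labelled wild type. Each library pooled whole tumours of at least 2 mice at about day 14, so spread between mice was not measured. There were 5 groups. UT (1 library) had no treatment, and IgG (2 libraries) received 10 mg/kg of an IgG2b control antibody. BP (2 libraries) received B20, which blocks VEGF, at 5 mg/kg together with 10 mg/kg of anti-PD-L1. BPI (1 library) received the BP antibodies and, daily by gavage, IPI-145 at 10 mg/kg, a compound that inhibits the delta and gamma forms of PI3K. CD40 (1 library) received 2 doses of 100 µg of a CD40 agonist 5 days apart. The antibodies of BP and IgG were injected every 3 days from day 6 or 7. The labels do not say which IgG mice also received the gavage diluent, nor whether CD40 mice also received a dendritic cell vaccine. All tumours were dissociated whole with collagenase, and p-values below measure the spread between pooled libraries. UT, BPI and CD40 have 1 library each, so their own spread was not measured. In the fits it is taken from the IgG and BP pairs. The study's stated purpose was to follow tumour cells and immune cells under different immunotherapies. The replicates are written IgG 1, IgG 2, BP 1 and BP 2.

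Leukocytes leave the blood in steps. Selectins on activated endothelium slow the cell, chemokines switch its integrins to a binding state, and integrins then hold ICAM and VCAM molecules on the vessel wall. Itgal with Itgb2 forms LFA-1, which binds ICAM1 and ICAM2, Itgam with Itgb2 forms Mac-1, which binds ICAM1 and complement fragments, and Itga4 with Itgb1 forms VLA-4, which binds VCAM1 and fibronectin. Resting brain endothelium is known for low levels of these ligands, and inflammatory cytokines induce Icam1, Vcam1 and the selectins there. Mac-1 is also a defining surface molecule of microglia, and Itgb1 pairs with many alpha subunits that bind matrix.

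All 10 identifiers were found in the GENCODE annotation of GRCm38, each as a protein-coding gene. The ligand genes lie at chr9:21015985-21028817 on the plus strand (Icam1), chr11:106377656-106388075 on the minus strand (Icam2), chr3:116109949-116129688 on the minus strand (Vcam1), chr1:164048234-164057677 on the plus strand (Sele) and chr1:164115264-164150026 on the plus strand (Selp). The integrin genes all lie on plus strands, at chr7:127296260-127335138 (Itgal), chr2:79255426-79333123 (Itga4), chr8:128685654-128733200 (Itgb1), chr10:77530252-77565708 (Itgb2) and chr7:128062640-128118491 (Itgam). Icam1, Vcam1, Selp and Itga4 overlap a gene on the other strand, and Itgam overlaps Gm49368 on its own strand, so reads in the shared part of Itgam are uncertain. RefSeq promoter sequences of GRCm38.p6, from 250 bases before to 50 bases after the gene start, were matched for 6 of the 10 members (Icam1, Sele, Selp, Itga4, Itgb1 and Itgam). Of these, 4 are shown because they hold a match to a searched motif: those of 2 inducible ligands (Icam1 at chr9:21015690-21015989 and Sele at chr1:164047984-164048283) and of 2 integrin subunits, 1 found in myeloid cells (Itgam at chr7:128062390-128062689) and 1 in every cell class (Itgb1 at chr8:128685404-128685703). All are on the plus strand and are written 5′ to 3′ with motif matches in capitals.
Icam1: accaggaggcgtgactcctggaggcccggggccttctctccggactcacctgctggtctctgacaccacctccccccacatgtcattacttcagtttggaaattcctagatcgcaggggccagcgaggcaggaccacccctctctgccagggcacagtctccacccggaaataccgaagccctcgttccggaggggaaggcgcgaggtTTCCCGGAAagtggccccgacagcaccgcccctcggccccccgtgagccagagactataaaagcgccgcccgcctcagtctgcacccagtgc
Sele: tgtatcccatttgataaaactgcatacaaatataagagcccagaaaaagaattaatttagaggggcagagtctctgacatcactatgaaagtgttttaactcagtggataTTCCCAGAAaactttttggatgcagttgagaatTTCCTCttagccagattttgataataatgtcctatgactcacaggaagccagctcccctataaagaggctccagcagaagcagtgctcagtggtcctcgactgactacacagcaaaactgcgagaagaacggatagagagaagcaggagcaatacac
Itgam: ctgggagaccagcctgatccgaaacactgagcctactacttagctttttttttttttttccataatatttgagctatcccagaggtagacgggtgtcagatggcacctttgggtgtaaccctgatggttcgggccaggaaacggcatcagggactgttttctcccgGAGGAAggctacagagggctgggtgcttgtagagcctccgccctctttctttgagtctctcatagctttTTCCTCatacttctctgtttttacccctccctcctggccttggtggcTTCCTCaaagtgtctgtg
Itgb1: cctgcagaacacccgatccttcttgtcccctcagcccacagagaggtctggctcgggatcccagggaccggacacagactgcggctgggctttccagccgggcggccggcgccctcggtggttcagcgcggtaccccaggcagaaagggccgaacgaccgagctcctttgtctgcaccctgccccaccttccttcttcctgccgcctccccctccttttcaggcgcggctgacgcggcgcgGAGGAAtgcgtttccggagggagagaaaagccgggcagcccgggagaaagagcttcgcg
The motifs TTCNNNGAA, GAGGAA and the NF-kB consensus were searched on both strands. TTCNNNGAA, the core bound by STAT factors, reads alike on both strands and was matched once in Icam1, at position -42, and once in Sele, at position -140. It is held by 8.33% of the 32544 RefSeq promoters of the same length of 300 bases. GAGGAA, the core bound by the myeloid factor PU.1, was matched 3 times in Itgam (position -84 on the plus strand, -15 and 33 on the minus strand), once in Itgb1 (-9) and once in Sele (-107, on the minus strand), and 28.1% of promoters hold it. The NF-kB consensus was searched as GGRRNNYYCC, where R is A or G and Y is C or T. It is held by 11.2% of promoters and had no exact match in the 6 windows. The Icam1 window holds tggaaattcc, which misses this pattern at its first base. Near matches were not counted, so the search does not show that a window lacks an NF-kB site. No match overlapped another motif, and a match is a description of the letters only.

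The libraries held 68997476 to 186793886 unique molecular identifiers (UMIs, each counting 1 captured RNA molecule). After filters, 48588 cells were kept, and clusters were called X-like from fixed marker genes, with the 10 members left out of the clustering. Tumour-like cells numbered 2626 to 5956 per library, T-like 39 to 1291, NK-like 16 to 436, monocyte/macrophage-like 63 to 1813, microglia-like 50 to 865 and endothelial-like 4 to 131. Cells of 11.8% stayed unnamed. Pairs of libraries shared 0 to 26 cell barcodes, at most 0.384% of the cells. Libraries with consecutive names form 2 sets, 1 of IgG 1, BP 2 and BPI and 1 of IgG 2 and CD40, while UT and BP 1 stand alone. In tumour-like cells these sets stood apart more than the treatments: 97.5% of IgG 1 cells, 95.9% of BP 2 cells and 96.5% of BPI cells lay in clusters made up mostly of those 3 libraries, and 96.0% of IgG 2 cells and 94.7% of CD40 cells lay in clusters mostly of that pair. Of the UT and BP 1 tumour-like cells, 91.7% and 87.8% lay in clusters mostly of their own library. Both BP libraries and both IgG libraries therefore fall in different sets, and values within a set are given beside results below. Levels are given as CPM, the UMIs of a gene scaled to 1000000 UMIs of the class in that library, and a fold is given as the edgeR log2 difference ± SE. DESeq2 was run as an alternative test. Shares over all genes are not given for its calls or for an unadjusted p under 0.05. Counts of those 2 kinds are therefore not read as results.

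Every member except Itgb1 was concentrated in some of the cell classes. The ranking covers classes with at least 20 cells in 3 or more libraries. Icam2, Sele and Selp were highest in endothelial-like cells, at 253 ± 18.3, 7.50 ± 4.19 and 22.6 ± 24.2 CPM (SD, n = 3 libraries with at least 20 such cells). Vcam1 was also highest there, at 79.0 ± 52.7 CPM (SD, n = 3), followed by monocyte/macrophage-like cells at 57.0 ± 68.1 CPM (SD, n = 7). Icam1 had no endothelial maximum: microglia-like cells held 287 ± 103 CPM (SD, n = 7), ahead of NK-like cells at 122 ± 40.0 (SD, n = 6) and monocyte/macrophage-like cells at 115 ± 56.2 (SD, n = 7), with endothelial-like cells at 72.0 ± 19.0 (SD, n = 3). Itgal led in NK-like cells at 225 ± 67.1 CPM (SD, n = 6), and the T-like mean was 178 ± 63.4 (SD, n = 7). Itga4 averaged 256 ± 147 CPM in T-like cells (SD, n = 7) and 6.24 ± 3.92 in microglia-like cells (SD, n = 7), the lowest among the leukocyte classes of the ranking. Itgb2 led in monocyte/macrophage-like cells at 275 ± 69.8 CPM (SD, n = 7), and Itgam in microglia-like cells at 439 ± 117 (SD, n = 7). Itgb1 was found in all classes, from 634 ± 203 CPM in NK-like cells (SD, n = 6) to 65.0 ± 3.26 in B-like cells (SD, n = 3).

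**Figure D1:**
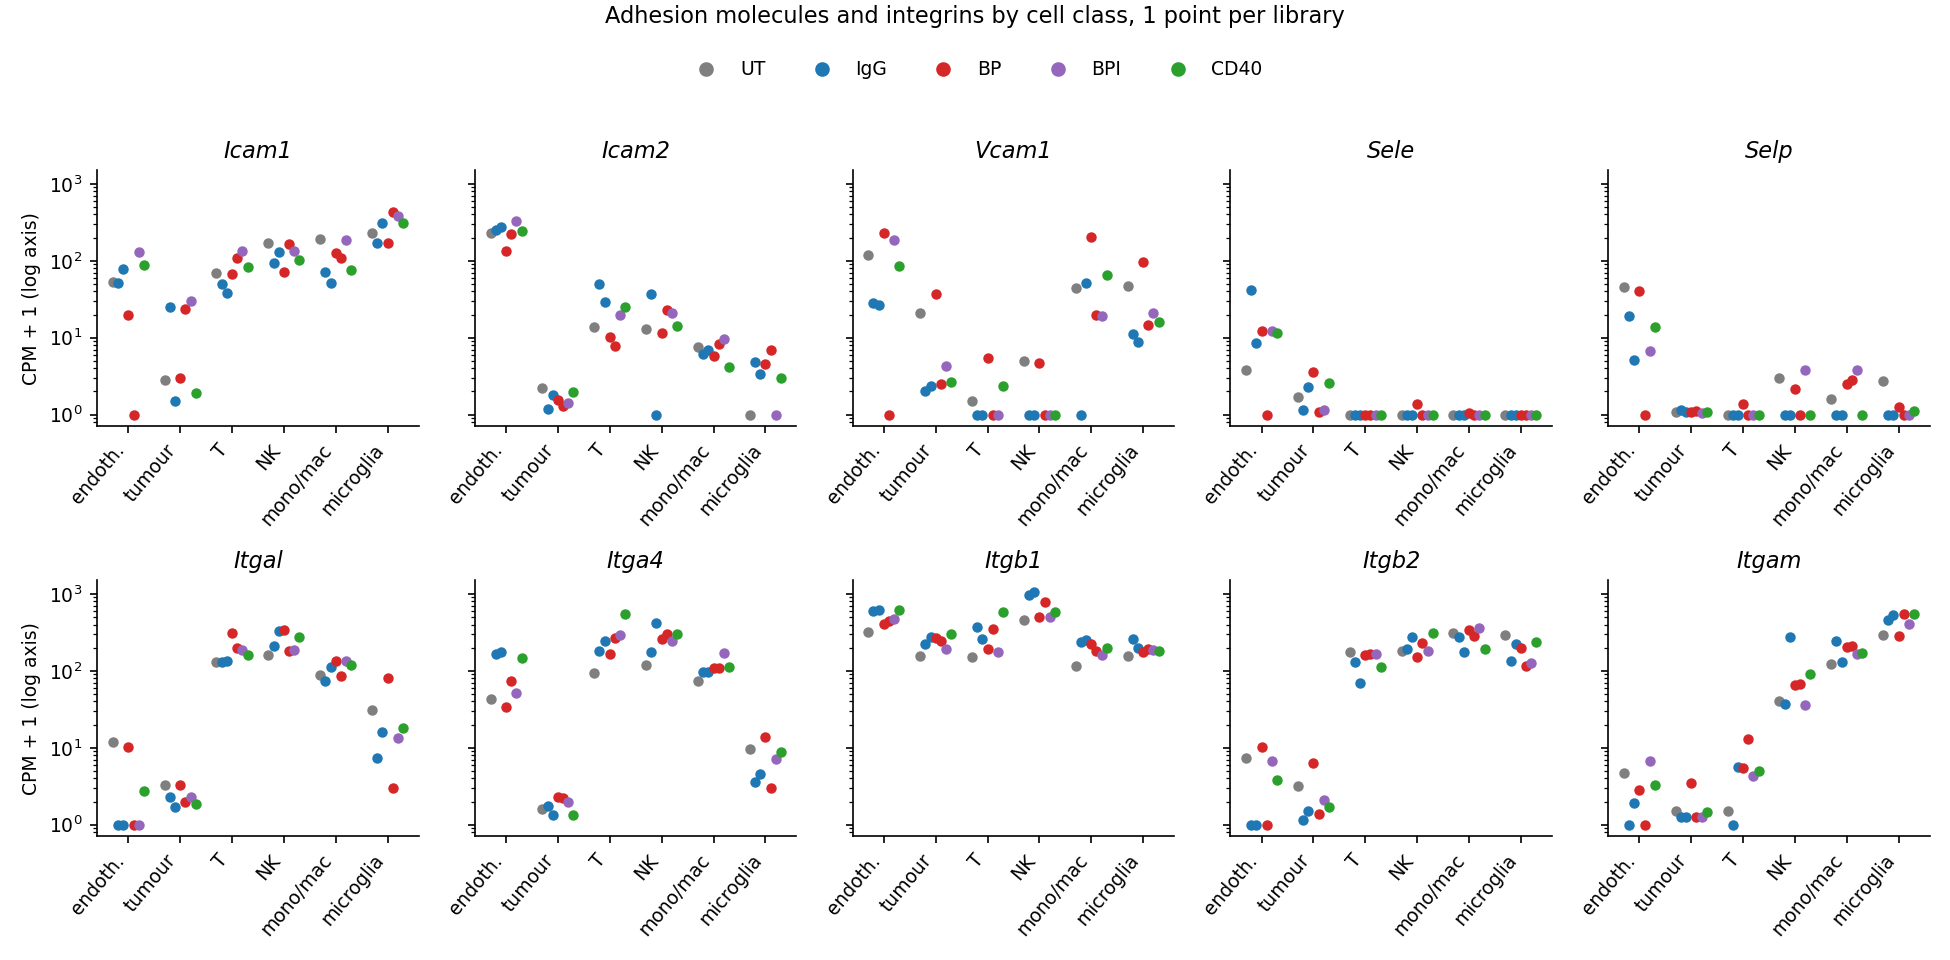
Level of each of the 10 members in 6 cell classes, with 1 point per library, coloured by group; the vertical axis is CPM + 1 on a log scale, and the endothelial column is a wider class formed after the data were seen, in all 7 libraries, so its points are not those behind the endothelial-like means of 3 libraries. Icam2 was highest in endothelial-like cells, Itgam in microglia-like cells, and Itgb1 was found in all 6 classes.

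The order was compared between neighbours within libraries by a two-sided exact sign-flip test. None of 68 neighbouring pairs passed an adjusted p of 0.05. No pair could pass, because at most 7 libraries were shared, and even pairs all at their smallest exact p would miss the threshold after adjustment. The smallest exact p was 0.0156, and 9 pairs had an unadjusted p under 0.05. Itgam was higher in microglia-like than in monocyte/macrophage-like cells in 7 of 7 libraries (exact p = 0.0156), and higher in the latter than in NK-like cells in 6 of 6 (exact p = 0.0312). Icam1 was higher in microglia-like than in NK-like cells in 6 of 6 libraries (exact p = 0.0312). Itga4 was higher in monocyte/macrophage-like than in microglia-like cells in 7 of 7 libraries (exact p = 0.0156). Neighbours whose order was not beyond their spread include T-like and NK-like cells for Itga4 (exact p = 1, higher in T-like cells in 3 of 6 libraries) and NK-like and monocyte/macrophage-like cells for Icam1 (exact p = 0.969, 3 of 6).

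Endothelial-like cells were few, and BP 2 held 4 of them, so the class could not be fitted as planned. A wider class was formed after the data were seen. It adds a cluster of 123 shallow cells in which 13 of 13 endothelial markers were raised, and holds 71 cells in UT, 13 and 94 in IgG 1 and IgG 2, 27 and 8 in BP 1 and BP 2, 25 in BPI and 184 in CD40. In this class edgeR called Vcam1 and Selp higher and the VLA-4 subunit Itga4 lower in UT than in IgG, and Vcam1 higher and Itga4 lower in BP than in IgG. UT is 1 library, which the fit takes to vary like the other groups. Of 8 alternatives each, the UT call was lost in 4 for Vcam1, 4 for Selp and 5 for Itga4. Of 10 each, the BP call was lost in 6 for Vcam1, with the direction turned in 1 more, and in 6 for Itga4. The BP value of Vcam1 rests on BP 1, and all counts are small.

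Vcam1 stood at 116 CPM in UT, 27.1 and 25.7 in IgG 1 and IgG 2, 226 and 0 in BP 1 and BP 2, 188 in BPI and 83.3 in CD40. The counts behind these levels were 126, 6, 55, 122, 0, 33 and 293 UMIs in the same order, and the 0 in BP 2 allows up to 110 CPM (3 counts). UT, BP 1, BPI and CD40 lay above both IgG libraries, while BP 2 was not detected at a depth that could not have shown the IgG level. Between BP and IgG the Vcam1 difference was 2.48 ± 0.61 (edgeR adjusted p = 0.0242), and between UT and IgG it was 2.13 ± 0.58 (edgeR adjusted p = 0.0111). BPI differed from IgG by 3.00 ± 0.71 (edgeR adjusted p = 0.0575). Within the sets, BPI stood at 188 CPM (95% Poisson interval 129 to 264) against 27.1 in IgG 1 (9.95 to 59.0), and CD40 at 83.3 CPM (74.0 to 93.4) against 25.7 in IgG 2 (19.3 to 33.4).

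The BP value came from 1 library. Without BP 1 the Vcam1 difference was -8.00 (edgeR adjusted p = 0.492), a value fitted to the 8 cells of BP 2 with no Vcam1 UMI and so no measure of size, and without BP 2 it was 2.93 (edgeR adjusted p = 1.11e-05). Without IgG 1 or IgG 2 it stood at 2.36 and 2.40 (edgeR adjusted p = 0.288 and 0.487). In UT against IgG Vcam1 was 2.13 without IgG 1 and 2.09 without IgG 2 (edgeR adjusted p = 0.410 and 0.808). DESeq2 called no member of the wider class in any comparison.

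The other ligands gave fewer differences. Selp, which is stored in endothelial granules and shown on activation, was at 44.3 CPM in UT, 18.1 and 4.20 in IgG 1 and IgG 2, 39.0 and 0 in BP 1 and BP 2, 5.69 in BPI and 12.8 in CD40, from 48, 4, 9, 21, 0, 1 and 45 UMIs. UT and BP 1 were the high libraries. The UT difference from IgG was 2.69 ± 0.85 (edgeR adjusted p = 0.0461), and without IgG 2 it was 1.28 (edgeR adjusted p = 0.999), and without BP 1 it was 2.81 (edgeR adjusted p = 0.140). Icam1 stood at 52.6 CPM in UT, 49.7 and 77 in IgG 1 and IgG 2, 18.6 and 0 in BP 1 and BP 2, 131 in BPI and 87.6 in CD40. BP 1, with 10 UMIs, lay below both IgG libraries, while the 0 in BP 2 allows up to 110 CPM, above both IgG levels, and the difference of -2.16 ± 0.67 missed the threshold (edgeR adjusted p = 0.104). BPI was the highest library for Icam1, with a difference of 3.29 ± 0.78 from BP (edgeR adjusted p = 0.162). Icam2, the constitutive endothelial ligand of LFA-1, ranged from 134 CPM in BP 1 to 330 in BPI, with 253 and 273 in the IgG libraries. Without a cluster of 16 deeply sequenced cells from UT and BP 1, BP 1 stood at 231 CPM for Icam2 and 32.4 for Icam1. Sele was low, from 0 in BP 2 to 40.7 CPM in IgG 1, the latter from 9 UMIs.

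Itga4 in the wider endothelial-like class stood at 41.5 CPM in UT, 163 and 174 in IgG 1 and IgG 2, 33.4 and 73.6 in BP 1 and BP 2, 51.2 in BPI and 147 in CD40. IgG 1, IgG 2 and CD40 were high, and both BP libraries, UT and BPI were low without overlap, although the BP 2 level rests on 2 UMIs and its 95% Poisson interval reaches 266 CPM, above the IgG levels. The difference was -2.39 ± 0.59 for BP (edgeR adjusted p = 0.0231) and -2.05 ± 0.62 for UT (edgeR adjusted p = 0.0321) against IgG. Without BP 1 the BP difference was -1.61 (edgeR adjusted p = 0.388). The UT difference was -2.11 without IgG 1 and -1.97 without IgG 2 (edgeR adjusted p = 0.366 and 0.618). The partner subunit Itgb1 ranged from 324 CPM in UT to 622 in IgG 2. Over the wider class 7 of 10 members could be tested, and Itgal, Itgb2 and Itgam were at most 11.1 CPM in each library. In BP against IgG 1 member rose and 1 fell, where 2.11% of 8943 tested genes were called, and in UT against IgG 2 rose and 1 fell, where 3.46% of 9877 were called. For BPI and for CD40, each against IgG, and for BPI against BP, edgeR called 0 members and 0.369%, 0.0224% and 0.0112% of genes at the adjusted threshold. At an unadjusted p under 0.05 there were 2, 1 and 2 members. The share of all genes at that p is not given, so these counts are not read as results.

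**Figure D2:**
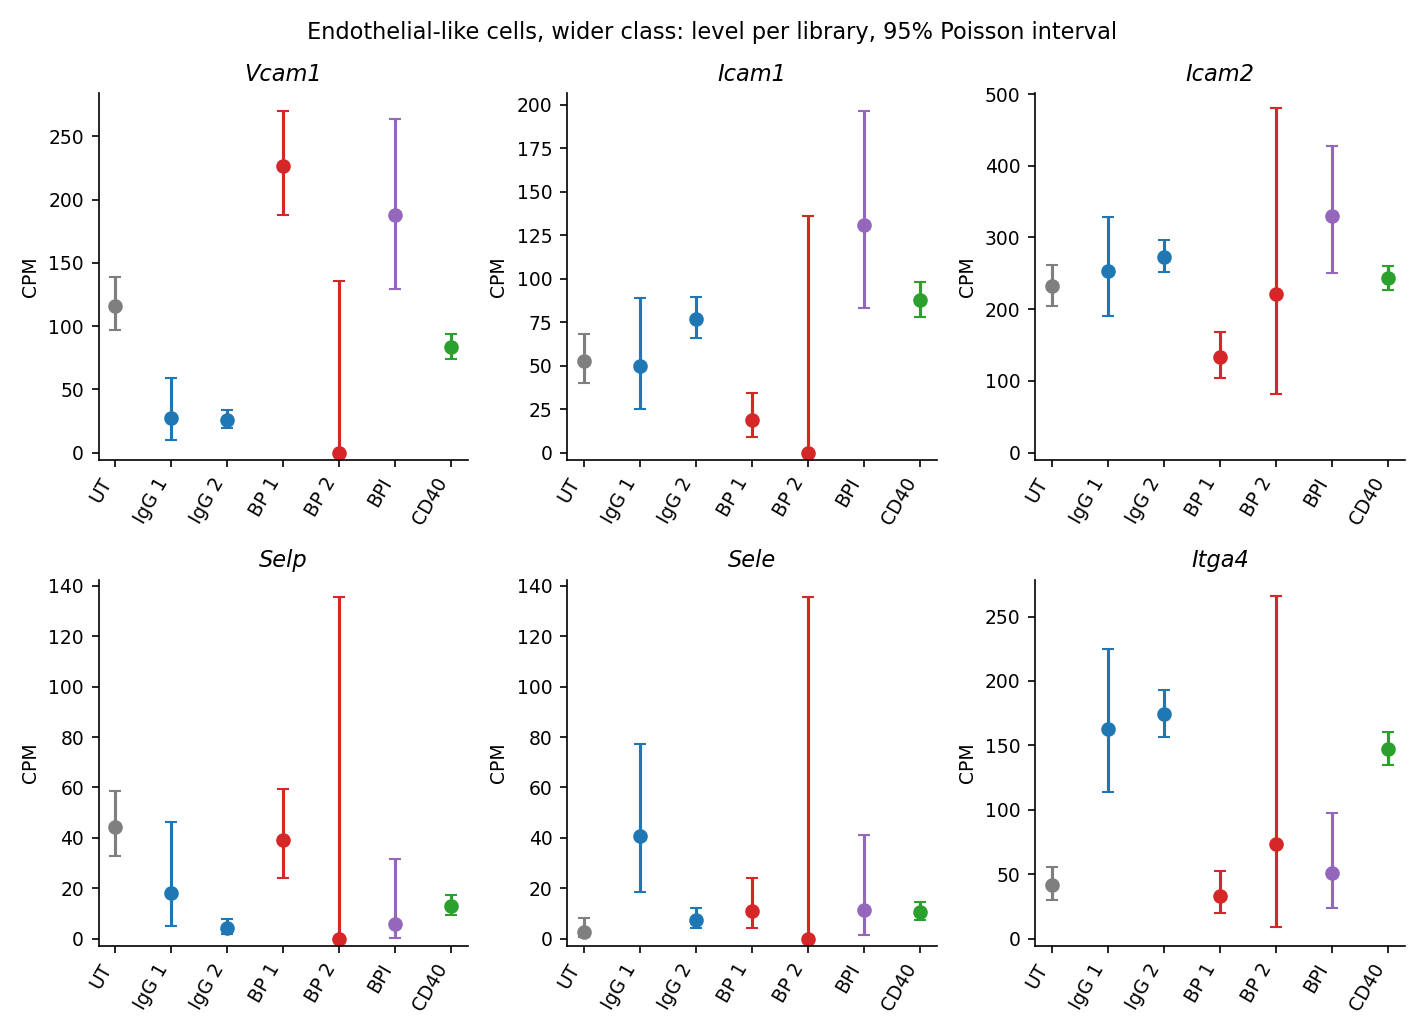
Levels of 6 members in the wider endothelial-like class of each library, in CPM; points are levels and bars are 95% Poisson intervals, which cover counting error only. Vcam1 was high in UT, BP 1 and BPI, where Itga4 was low, and the interval of BP 2 (8 cells) is wide in every panel.

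The endothelial-like clusters held the members unevenly, and the libraries held these clusters in different numbers. A cluster of 50 cells led by Ubd, Ccl21a and Ackr1, the last a marker of venules, came from UT (32 cells), BPI (10), BP 1 (7) and IgG 2 (1), and held Vcam1 at 235 CPM, Selp at 72.0 and Itga4 at 64.9. A cluster of 138 cells led by Apln and Prnd, genes known from tip cells of growing vessels, came mostly from CD40 (64), IgG 2 (53) and IgG 1 (13, all of that library's endothelial-like cells), and held Itga4 at 199 CPM, Itgb1 at 670, Vcam1 at 32.1 and Selp at 10.2. A cluster of 33 cells led by genes that include Vwf, Ackr1 and Lrg1, of which CD40 gave 22, had the highest Vcam1 (337 CPM), Icam1 (266) and Sele (27.1) among the 7 clusters. A cluster of 51 cells led by Spock2, Cxcl12 and Slc22a8, 36 of them from CD40, held Vcam1 at 31.6 CPM and no Sele or Selp UMI. The cluster of 50 cells was thus higher in Vcam1 and lower in Itga4 than that of 138 cells. Levels within a cluster were not compared between libraries, and the part of cluster numbers in the differences between groups was not tested. Summed over the class, Ackr1 stood at 348 CPM in UT, 81.3 and 28.0 in IgG 1 and IgG 2, 301 and 0 in BP 1 and BP 2, 370 in BPI and 69.4 in CD40. Apln stood at 189, 303, 297, 13, 0, 102 and 304 CPM in the same order. The endothelial marker sum lay between 7483 and 14393 CPM.

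Other cell types' RNA was present in this class. The sum of 11 tumour markers ranged from 131 CPM in IgG 1 to 969 in BP 1, and a cluster of 16 cells from UT (9) and BP 1 (7), led by Sct, Lpo and Rfx4, had 3.08 times the depth of its libraries' median. The monocyte/macrophage marker sum over 12 genes ranged from 4.67 CPM in IgG 2 to 456 in UT. The mural marker sum over 9 genes ranged from 13.6 CPM in IgG 1 to 3644 in BP 2. Without the deep cluster Vcam1 was higher, at 159 CPM in UT and 346 in BP 1, and the BP difference was 3.18 (edgeR adjusted p = 0.00455). The Itga4 difference then was -1.99 in BP (edgeR adjusted p = 0.0714) and -1.46 in UT (edgeR adjusted p = 0.453), the UT Vcam1 difference was 2.72 (edgeR adjusted p = 0.119) and that of Selp 3.35 (edgeR adjusted p = 0.0606). The part of mural and monocyte/macrophage RNA in these results was not tested.

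In tumour-like cells no library was high in both Icam1 and Vcam1, and IgG 2 and CD40 were low in both. Icam1 stood at 1.85 CPM in UT, 23.8 and 0.511 in IgG 1 and IgG 2, 1.96 and 22.9 in BP 1 and BP 2, 29.4 in BPI and 0.911 in CD40. IgG 1, BP 2 and BPI, the 3 libraries of consecutive names, were high, and each treatment with 2 libraries had 1 high and 1 low. Vcam1 stood at 19.7 CPM in UT, 1 and 1.34 in IgG 1 and IgG 2, 35.5 and 1.53 in BP 1 and BP 2, 3.27 in BPI and 1.66 in CD40. Only UT and BP 1 were above 5 CPM among the 7 libraries, so the 2 ligands were high in different libraries. In tumour-like cells the sum of 12 monocyte/macrophage markers was also highest in these libraries, at 101 CPM in UT and 112 in BP 1 against 8.40 to 46.3 in the other 5, and that of 6 astrocyte markers was 61.8 and 33.1 CPM against 1.41 to 15.5. None of these markers was at 0 in all libraries, and their part in the Vcam1 level was not tested.

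Shares of cells gave the same picture. Icam1 UMIs were found in 26.9% of tumour-like cells of IgG 1 (95% Clopper-Pearson interval 25.6% to 28.2%), 23.7% of BP 2 and 23.5% of BPI, against 0.957% to 4.18% in the other 4 libraries. Vcam1 UMIs were found in 18.2% of UT cells (16.7% to 19.7%) and 25.3% of BP 1 cells (24.1% to 26.6%), against 1.45% to 2.96% in the other 5. Intervals cover counting error only. With each cell thinned to 1000 UMIs, the Icam1 shares were 1.88%, 2.49% and 3.14% in IgG 1, BP 2 and BPI and at most 0.26% elsewhere, and the Vcam1 shares were 1.98% in UT and 3.62% in BP 1 and at most 0.22% elsewhere. In T-like cells, taken as a class without Vcam1, its share ranged from 0% to 3.33% unthinned and from 0% to 0.775% thinned, at median depths of 2391.5 to 6089 UMIs against 10576.5 to 21561 in tumour-like cells. The estimated free RNA was 4.02% to 5.56% of the tumour Icam1 level in the 3 high libraries and 57.5% to 145% in the other 4, so Icam1 there is not told from background. For Vcam1 the free RNA was 4.89% to 14.7% of the level.

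**Figure D3:**
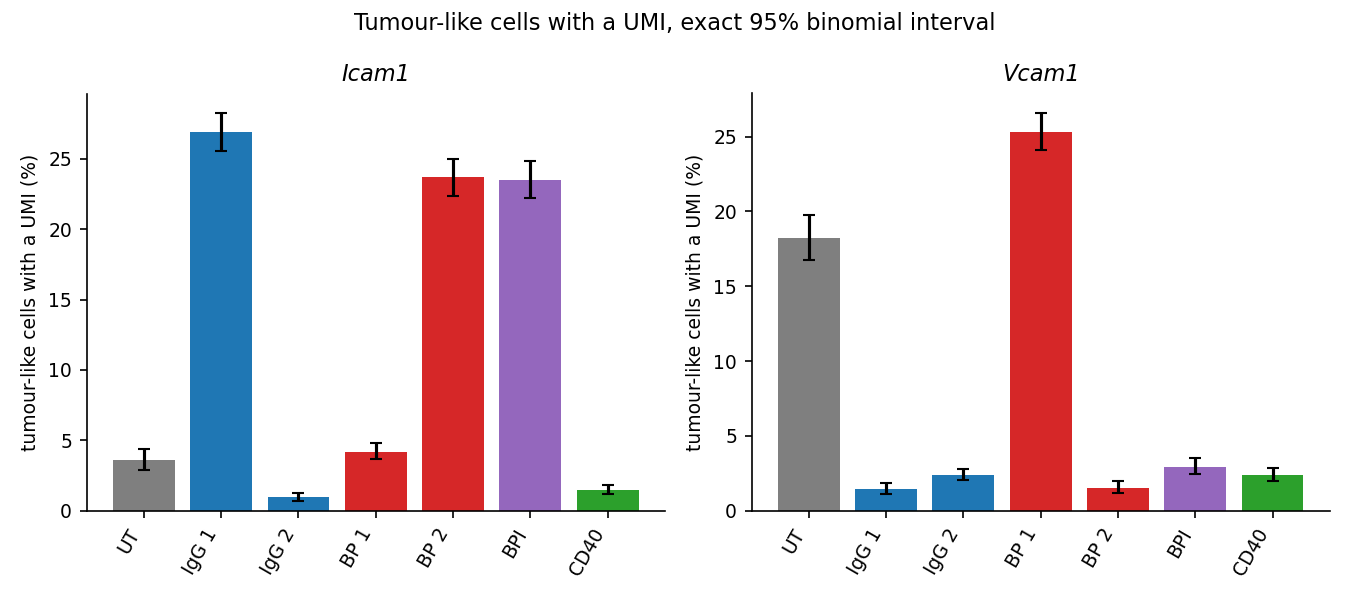
Share of tumour-like cells with an Icam1 UMI (left) or a Vcam1 UMI (right) in each library, in percent; bars are shares, with exact 95% binomial intervals. Icam1 was high in IgG 1, BP 2 and BPI (23.5% to 26.9%), and Vcam1 in UT and BP 1 (18.2% and 25.3%).

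Clusters of tumour-like cells followed the same split in part. Icam1 lay between 21.7 and 36.2 CPM in the 4 clusters mostly of IgG 1, BP 2 and BPI, between 0.617 and 0.897 in the 4 clusters mostly of IgG 2 and CD40, and between 1.67 and 2.05 in the 2 UT clusters. The 2 BP 1 clusters differed, at 1.82 CPM in a cluster of 4543 cells and 17.2 CPM in a cluster of 59 cells led by Lhfpl3, Tnr and Opcml. The cluster of 59 cells came from a split that also gave neuron-like, astrocyte-like and ependymal-like clusters. In it 8 of 11 tumour markers were raised, and whether it holds host cells was not tested. Vcam1 lay between 25.3 and 48.5 CPM in the BP 1 clusters and between 2.55 and 36.2 in the UT clusters. In the clusters mostly of IgG 1, BP 2 and BPI it lay between 1.05 and 4.29 CPM, a range that covers the lower UT cluster. In those mostly of IgG 2 and CD40 it lay between 0.937 and 1.47 CPM. Its highest value among tumour-like clusters, 89.5 CPM, was in a cluster of 933 cells led by the astrocytic genes Gfap and A2m, which was not mostly of any set. The sum of the 11 tumour markers was lower in the Icam1-high libraries (695, 750 and 667 CPM in IgG 1, BP 2 and BPI) than in the other 4 (1038 to 1587 CPM).

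Of the other members, Itgb1 was the tumour-like cells' main integrin subunit, at 154 CPM in UT, 221 and 273 in IgG 1 and IgG 2, 265 and 241 in BP 1 and BP 2, 190 in BPI and 299 in CD40. The BP libraries lay within the IgG range. Sele, an endothelial selectin, was found in tumour-like cells at 2.59 CPM in BP 1, 1.60 in CD40, 1.25 in IgG 2 and 0.685 in UT, and at most 0.149 in IgG 1, BP 2 and BPI. Because tumour-like cells were many, they held 52.6% (IgG 1) to 100% (BP 2, of 4 UMIs) of a library's Sele UMIs, with 93% in UT, 96.7% in BP 1 and 86.9% in IgG 2. The UMIs lay in few cells, from 0.068% of the tumour-like cells of IgG 1 to 3.56% of those of BP 1. Among tumour-like clusters Sele was highest, at 4.51 CPM, in the cluster led by Gfap and A2m. The estimated free RNA was at most 5.81% of the Sele level. The remaining members were at most 5.35 CPM in tumour-like cells.

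edgeR called 0 of 10 members in tumour-like cells in each of the 5 comparisons, where it called 0% of 20368 genes (20124 for UT). At an unadjusted p under 0.05 there was 1 member in BP and 1 in UT against IgG, and none in the other 3 comparisons. Both were Vcam1, with 3.85 ± 1.41 in BP (edgeR adjusted p = 1) and 4.03 ± 1.53 in UT (edgeR adjusted p = 0.415). DESeq2 called Vcam1 in UT (adjusted p = 0.0437) and no other member. Shares of all genes are given neither for that unadjusted p nor for DESeq2, so these counts are not read as results. Without BP 1 the BP difference of Vcam1 was 0.50. Within the sets, Icam1 was 29.4 CPM in BPI (95% Poisson interval 27.9 to 31.0) and 23.8 in IgG 1 (22.7 to 24.9), and Vcam1 was 3.27 (2.78 to 3.83) and 1 (0.783 to 1.26). With 1 library on each side these intervals cover counting error, not spread between tumours.

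Myeloid cells carried Icam1 and, in some clusters, Vcam1. In monocyte/macrophage-like cells Icam1 stood at 193 CPM in UT, 69.7 and 50.2 in IgG 1 and IgG 2, 125 and 107 in BP 1 and BP 2, 185 in BPI and 74.1 in CD40. All other libraries lay above both IgG libraries, UT and BPI the furthest. The sum of 8 NK markers in these cells was 473 CPM in UT, 73.1 and 12.0 in IgG 1 and IgG 2, 106 and 186 in BP 1 and BP 2, 305 in BPI and 10.4 in CD40, and its part in the Icam1 level was not tested. BPI differed from IgG by 2.13 ± 0.44 (edgeR adjusted p = 0.147), UT by 2.03 ± 0.45 (edgeR adjusted p = 0.141) and BP by 1.05 ± 0.38 (edgeR adjusted p = 0.523), so none passed. DESeq2 called this Icam1 difference in BPI (adjusted p = 0.0273) and in UT (adjusted p = 0.0410). The share of all genes called by DESeq2 is not given, so these calls are not read as results. With UT pooled with IgG the BP difference of Icam1 was 0.01. Within the set, BPI at 185 CPM (95% Poisson interval 170 to 200) stood above IgG 1 at 69.7 (49.99 to 94.5). Of the 1813 BP 1 cells of this class, 1665 lay in a cluster led by Ccl8, Ccl24 and Mrc1. That cluster held 2 cells of BP 2 and 0 of IgG 1 and IgG 2. Its part in the BP 1 level of Icam1 was not tested.

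Icam1 in microglia-like cells stood at 230 CPM in UT, 170 and 305 in IgG 1 and IgG 2, 169 and 436 in BP 1 and BP 2, 387 in BPI and 310 in CD40, and the BP libraries lay on either side of the IgG libraries. Of the 220 BP 1 cells, 216 lay in a cluster led by Cd36 and C1qc. That cluster held 1 of the 160 BP 2 cells and 0 cells of IgG 1 and IgG 2. Its part in the Icam1 levels was not tested. Within the set, BP 2 (381 to 498) and BPI (340 to 438) lay above IgG 1 (142 to 201, all 95% Poisson intervals). Dendritic-like cells, with 20 or more cells in 2 libraries, held Icam1 at 325 and 359 CPM.

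Vcam1 in myeloid cells was high in BP 1. Monocyte/macrophage-like cells held 43.0 CPM in UT, 0 and 51.0 in IgG 1 and IgG 2, 203 and 18.9 in BP 1 and BP 2, 18.4 in BPI and 64.4 in CD40. BP 1 was the highest library and the other 6 overlapped across groups. A cluster of 1674 cells led by Ccl8, Ccl24 and Mrc1, genes of alternatively activated macrophages, held 1665 cells of BP 1 and had Vcam1 at 214 CPM. In the other cluster of this class, led by Ms4a4c and Ms4a7, Vcam1 was at 36.3 CPM over all libraries and at 10.4 CPM in its 148 cells of BP 1. In microglia-like cells Vcam1 stood at 45.4 CPM in UT, 10.3 and 7.89 in IgG 1 and IgG 2, 96.2 and 13.8 in BP 1 and BP 2, 20.1 in BPI and 15.2 in CD40. Again BP 1 and then UT were high. Of the 240 cells of a microglia-like cluster led by Cd36 and C1qc, 216 came from BP 1 and 21 from UT, and it held Vcam1 at 95.5 CPM, against 12.3 in the other cluster, led by Gpr34 and P2ry12. In the first of these, 7 of 9 microglia markers and 8 of 12 monocyte/macrophage markers were raised, so the BP 1 level in this class is that of a cluster which carries both marker lists. The microglia-like Vcam1 difference was 2.80 ± 0.82 in BP (edgeR adjusted p = 0.999) and 2.5 ± 1 in UT (edgeR adjusted p = 0.612) against IgG, and without BP 1 the BP difference was 0.69.

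The integrin subunits of myeloid cells also differed between libraries. Itgam in microglia-like cells stood at 295 CPM in UT, 459 and 529 in IgG 1 and IgG 2, 280 and 551 in BP 1 and BP 2, 402 in BPI and 556 in CD40. UT and BP 1, which draw on the Cd36 cluster, were the lowest, and that cluster had Itgam at 279 CPM against 532 in the other. Itgal was 80.8 CPM in BP 1, 29.7 in UT and at most 17.1 in the other libraries' microglia-like cells, and 79.3 in the Cd36 cluster against 15.2. In monocyte/macrophage-like cells Itgb2 lay between 173 CPM (IgG 2) and 357 (BPI), Itgam between 124 (UT) and 246 (IgG 1) and Itgal between 73.1 (IgG 1) and 134 (BP 1 and BPI). Itga4 there stood at 72.7 CPM in UT, 95.1 and 95.2 in IgG 1 and IgG 2, 108 and 110 in BP 1 and BP 2, 169 in BPI and 112 in CD40. BPI was the highest, with a difference from IgG of 1.32 (edgeR adjusted p = 0.310). The 148 cells of BP 1 in the Ms4a4c cluster held Itga4 at 527 CPM and Itgal at 354, while its 1665 cells in the Ccl8 cluster held 81.3 and 120.

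edgeR called 0 members in monocyte/macrophage-like cells (8 tested) and in microglia-like cells (8 tested, 7 for UT). In monocyte/macrophage-like cells it called 0% of 11815 genes in BP, BPI and CD40 against IgG and in BPI against BP, and 0.0966% of 12428 in UT against IgG. In microglia-like cells it called 0% in all 5 comparisons. At an unadjusted p under 0.05 there were 1, 2, 0, 2 and 1 members in monocyte/macrophage-like cells, in the order BP, BPI and CD40 against IgG, BPI against BP and UT against IgG, and 1, 0, 0, 0 and 1 in microglia-like cells. DESeq2 called no member in microglia-like cells. For the unadjusted p the share of all genes is not given, so its counts are not read as results.

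T-like cells carried LFA-1 and VLA-4 subunits in every library. Itgal stood at 130 CPM in UT, 131 and 134 in IgG 1 and IgG 2, 308 and 200 in BP 1 and BP 2, 185 in BPI and 160 in CD40. Both BP libraries lay above both IgG libraries, and BP 1 was the highest. The BP difference of 0.75 ± 0.44 did not pass (edgeR adjusted p = 0.761). Its partner Itgb2 stood at 175 CPM in UT, 131 and 69.2 in IgG 1 and IgG 2, 162 and 165 in BP 1 and BP 2, 165 in BPI and 112 in CD40. IgG 2 was the lowest, from 57 cells. Itga4 stood at 91.6 CPM in UT, 180 and 245 in IgG 1 and IgG 2, 167 and 265 in BP 1 and BP 2, 292 in BPI and 550 in CD40. CD40 was the highest library and UT the lowest, and the BP and IgG ranges overlapped. Itgb1 followed a like order at its ends, with 580 CPM in CD40 and 150 in UT, 369 and 259 in IgG 1 and IgG 2, 193 and 347 in BP 1 and BP 2 and 176 in BPI.

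None of these T-like differences passed the test. Itga4 differed from IgG by 1.27 ± 0.51 in CD40 (edgeR adjusted p = 0.934) and by -1.32 in UT (edgeR adjusted p = 0.236), and Itgb1 by -1.11 in UT (edgeR adjusted p = 0.348). Within the set, CD40 held Itga4 at 550 CPM (95% Poisson interval 499 to 606) and IgG 2 at 245 (183 to 320), and Itgb1 at 580 (526 to 637) and 259 (195 to 336). The T-like cells also carried ligands of LFA-1. Icam1 was at 68.7 CPM in UT, 49.1 and 36.9 in IgG 1 and IgG 2, 66.3 and 108 in BP 1 and BP 2, 133 in BPI and 81.1 in CD40. All other libraries were above both IgG libraries, with a difference of 1.76 ± 0.58 in BPI (edgeR adjusted p = 0.199). The sum of 12 monocyte/macrophage markers in T-like cells was 2110 CPM in UT, 1564 and 1279 in IgG 1 and IgG 2 and 1590 and 2526 in BP 1 and BP 2. It was 2974 CPM in BPI and 806 in CD40. Lyz2, a gene of that list, did not follow the sum. It stood at 40.7 CPM in UT, 24.6 and 13.8 in IgG 1 and IgG 2, 36.4 and 16.1 in BP 1 and BP 2, 13.6 in BPI and 13.3 in CD40. In monocyte/macrophage-like cells Lyz2 stood at 5040 to 12146 CPM. The estimated free RNA was 1.07% to 3.26% of the T-like Icam1 level. The part of monocyte/macrophage RNA in this level was not tested. Icam2 was at 12.7 CPM in UT, 49.1 and 27.7 in IgG 1 and IgG 2, 9.34 and 6.72 in BP 1 and BP 2, 18.5 in BPI and 23.9 in CD40, with both BP libraries below both IgG libraries and a difference of -2.34 ± 0.74 (edgeR adjusted p = 0.105).

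The T-like class was split by coreceptor UMIs as a description. In cells with Cd8a or Cd8b1 UMIs and no Cd4 UMI, Itgal stood at 124 CPM in UT, 111 and 88.0 in IgG 1 and IgG 2, 365 and 229 in BP 1 and BP 2, 196 in BPI and 137 in CD40. The BP and BPI libraries were the high ones, and the IgG levels rest on 12 and 13 cells. Itga4 in these cells was highest in CD40 at 630 CPM and lowest in IgG 1 at 44.2. In cells with Cd4 UMIs and no Cd8a or Cd8b1 UMI, Itga4 stood at 94.5 CPM in UT, 158 in BP 1, 172 in BPI and 631 in CD40. Among these listed libraries CD40 was the highest and UT the lowest for Itga4 in CD4-type cells, over 23 and 129 cells. The IgG and BP 2 levels of this subset are not given, so no control stands beside these values.

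edgeR called 0 of 6 tested members in T-like cells in each of the 5 comparisons. It called 1.08% of 9162 genes in BP, 0.589% in BPI and 0.120% in CD40 against IgG, 0.186% in BPI against BP and 2.26% of 9317 in UT against IgG. At an unadjusted p under 0.05 there was 1 member in each of the first 4 comparisons and 2 in UT, and DESeq2 called none. The share of all genes at this p is not given, so these counts are not read as results. The median log2 difference over the tested members was 0.24 in BP and -0.61 in UT against IgG, beside 0.05 and 0.03 over all genes tested.

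NK-like cells held the same subunits and, unlike T-like cells, some Itgam. Itgb1 was at 455 CPM in UT, 967 and 1059 in IgG 1 and IgG 2, 503 and 796 in BP 1 and BP 2, 508 in BPI and 577 in CD40, with IgG above all other libraries. Itgal lay between 159 CPM (UT) and 336 (BP 1), Itga4 between 120 (UT) and 420 (IgG 2), and Itgb2 between 149 (BP 1) and 310 (CD40). Itgam was at 274 CPM in IgG 2, which rests on 16 cells, and at 35.2 to 89.0 in the other 6 libraries. The Itgam difference was -1.71 in BPI (edgeR adjusted p = 1) and -1.57 in UT (edgeR adjusted p = 0.455) against IgG, and without IgG 2 it was 0.07 and 0.16. edgeR called 0 members, of 6 tested (7 for UT), where it called 0.346%, 0.0173% and 0.259% of 5784 genes in BP, BPI and CD40 against IgG, 0.207% in BPI against BP and 0.538% of 6873 in UT against IgG. At an unadjusted p under 0.05 there was 1 member in BPI and 1 in UT against IgG, both Itgam, and DESeq2 called none. The share of all genes at this p is not given, so these counts are not read as results.

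**Figure D4:**
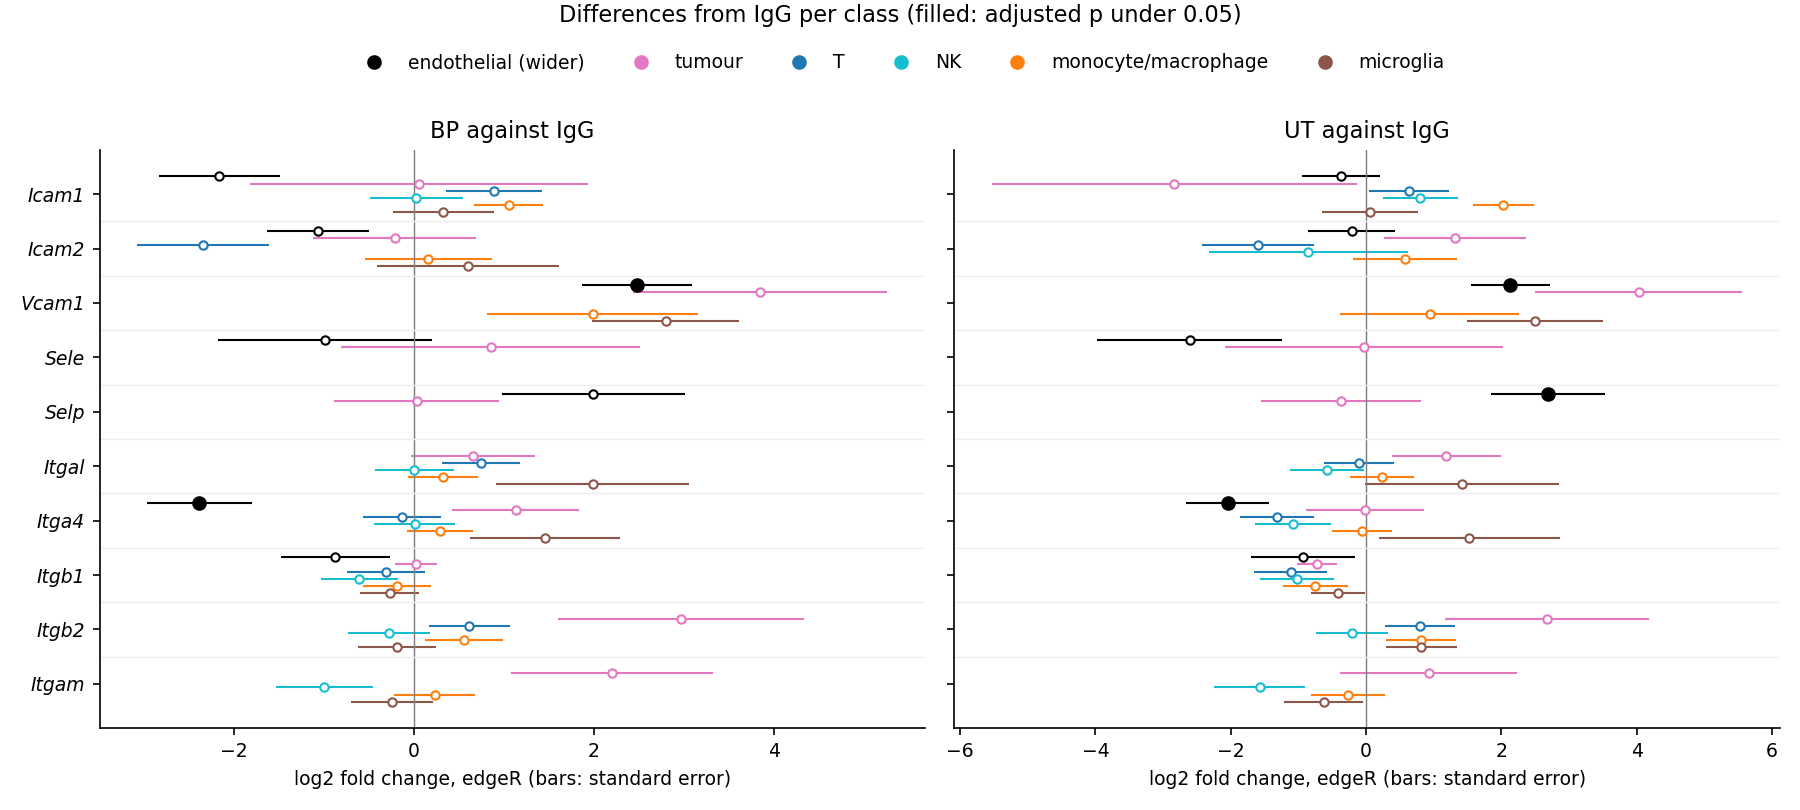
edgeR log2 difference of each tested member from IgG, for BP (left) and UT (right), coloured by cell class; points are estimates, bars are 1 standard error, and filled points had an adjusted p under 0.05. The filled points, all in the wider endothelial-like class, are Vcam1 and Itga4 for BP and Vcam1, Selp and Itga4 for UT.

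Other genes of the adhesion cascade were read from 5 lists (73 genes). In T-like cells, where edgeR called 1.08% of all genes in BP against IgG, it called 2 of 9 tested other integrin subunits higher: Itgav, which pairs with Itgb1 and other beta chains in matrix receptors, by 2.23 (edgeR adjusted p = 0.0108), and Itga1, a collagen receptor subunit of tissue-resident T cells, by 3.99 (edgeR adjusted p = 0.0164). Itga1 stood at 0 and 4.62 CPM in IgG 1 and IgG 2 and at 52.6 and 55.1 in BP 1 and BP 2. In UT against IgG, with 2.26% of genes called, Itgav was higher by 2.61 (edgeR adjusted p = 0.00211) and Itga6 fell by 2.02 (edgeR adjusted p = 0.0479). Of 4 tested junction molecules edgeR called Alcam in T-like cells, by 1.99 in BP (edgeR adjusted p = 0.0249). In NK-like cells Alcam was lower than in IgG, by -3.34 in CD40 (edgeR adjusted p = 0.0435) and by -2.83 in UT (edgeR adjusted p = 0.0462), where it stood at 63.9 and 256 CPM in IgG 1 and IgG 2. DESeq2 called none of these differences of integrin subunits and Alcam. Of the 14 tested integrin activation genes, such as Tln1 and Fermt3, edgeR called 0 in T-like cells in each of the 5 comparisons, DESeq2 called 0, and at an unadjusted p under 0.05 there were 0 in BP, 1 in BPI and 2 in UT against IgG.

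Inducers of the endothelial ligands also differed in T-like cells. BPI and UT are 1 library each, which the fit takes to vary like the IgG and BP pairs. Ifng, which induces Icam1, stood at 57.3 and 87.7 CPM in IgG 1 and IgG 2, 342 and 405 in BP 1 and BP 2, 1577 in BPI, 287 in UT and 37.2 in CD40. Against IgG it rose by 2.17 in BP (edgeR adjusted p = 0.00865). In BPI it rose by 4.48 (edgeR adjusted p = 1.60e-09), and BPI was above BP by 2.31 (edgeR adjusted p = 0.00469). Lta (lymphotoxin alpha) stood at 0 and 9.23 CPM in IgG 1 and IgG 2, 104 and 44.4 in BP 1 and BP 2, 9.82 in BPI and 118 in UT, and rose by 3.46 in BP (edgeR adjusted p = 0.0108) and by 4.24 in UT (edgeR adjusted p = 0.000324). BPI was below BP in Lta, by -2.63 (edgeR adjusted p = 0.0240). Of 9 tested genes of the list of inducers and NF-kB pathway genes edgeR thus called 2 in BP, 1 in BPI and 1 in UT against IgG and 2 in BPI against BP, where it called 1.08%, 0.589%, 2.26% and 0.186% of all genes, and DESeq2 called 1, 1, 1 and 0. In monocyte/macrophage-like cells, in BPI against IgG, 8 genes of this list were tested and edgeR called 0, as it did over all 11815 genes. The median log2 difference was 2.24 beside -0.01 over all genes. At an unadjusted p under 0.05 there were 7, but the share of all genes at that p is not given, so this count is not read as a result. DESeq2 called 3 of the tested genes there (Nfkb1, Nfkbia and Tnfaip3, named after their values were seen), and its share over all genes is not given either. In the wider endothelial-like class Glycam1, a sialomucin of specialised venules, was at 32.3 CPM in UT and 0 in both IgG libraries (edgeR adjusted p = 0.00528), and Skap1, a signalling adaptor of T cells, differed by 4.25 in UT (edgeR adjusted p = 0.0332). DESeq2 called neither. Skap1 stood at 784 to 1472 CPM in T-like and 548 to 1193 CPM in NK-like cells. In the wider endothelial-like class the sum of 8 NK markers was 96.0 CPM in UT against 0 and 1.40 in IgG 1 and IgG 2, and that of 11 T markers 26.8 against 0 and 4.67. Cd44, a receptor for hyaluronan and a selectin ligand, stood at 0 and 4.67 CPM in IgG 1 and IgG 2 and at 145 and 110 in BP 1 and BP 2, from 0, 10, 78 and 3 UMIs. The BP difference was 4.80 (edgeR adjusted p = 0.000101), and DESeq2 called it too. BP 1 also had the highest tumour marker sum of this class (969 CPM) and a T marker sum of 81.7 CPM, and Cd44 stood at 135 CPM in its tumour-like and 570 in its monocyte/macrophage-like cells. The part of RNA from other cell types in the Skap1 and Cd44 differences was not tested.

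In the whole suspension a member's level depends on which cells are there as well as on RNA per cell. Over all kept cells Itgal stood at 2.42 and 2.90 CPM in IgG 1 and IgG 2 and at 48.7 and 6.58 in BP 1 and BP 2. Itga4 stood at 2.78 and 5.47 against 34.3 and 9.31 CPM, Icam1 at 25.4 and 19.5 against 27.9 and 29.9, and Selp at 0.185 and 0.139 against 0.512 and 0.214. Both BP libraries lay above both IgG libraries for these 4 members and below for none, while 9.92% of 27065 genes lay above and 15.1% below. The two-sided exact permutation p was 0.33 for each of the 4, which is the smallest that 2 against 2 libraries allow. T-like cells made up 0.656% and 0.761% of kept cells in IgG 1 and IgG 2 (39 and 57 cells) and 13.4% and 3.99% in BP 1 and BP 2 (1291 and 228 cells). Within T-like cells Itgal stood at 131 and 134 CPM against 308 and 200.

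The cells behind the whole-tumour level of Icam1 differed by set. Tumour-like cells gave 87.7% of its UMIs in IgG 1, 70.2% in BP 2 and 52.5% in BPI, while leukocytes gave 87.8% in UT, 90.6% in IgG 2, 93.9% in BP 1 and 87.7% in CD40. For Vcam1 tumour-like cells gave 75.5% in IgG 1, 67.3% in UT, 65.4% in BP 2, 55.6% in BPI, 48.8% in BP 1, 37.7% in IgG 2 and 16.0% in CD40. Leukocytes gave 92.3% to 96.7% of Itgb2 UMIs and 93.9% to 98.5% of Itgam UMIs in the 7 libraries. Tumour-like cells gave 76.8% to 93.8% of Itgb1 UMIs.

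Across 47 class and library sums of 11 classes, the genes most like each member were named as a description. Sums of 1 library share its depth, and sums of 1 class share its type. Itgb2 was closest to Ncf4 (Pearson r = 0.95), a subunit of the phagocyte oxidase, and Itgam to the Fc receptor gene Fcgr3 (0.93). Itgal was closest to Arhgap15 (0.94), Itga4 to the sialyltransferase gene St3gal1 (0.91) and Itgb1 to Oip5os1 (0.70). Among the ligands Icam1 was closest to Birc3 (0.85), a known NF-kB target, Icam2 to Pecam1 (0.79), Vcam1 to Il13ra1 (0.77), Sele to the basement membrane gene Col4a2 (0.91) and Selp to Hdc (0.73). Of the integrin partners, Itgal and Itgb2 had r = 0.83, Itgb2 and Itgam 0.69, and Itga4 and Itgb1 0.097, over the same 47 sums.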

How the data were processed

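The deposited files hold raw UMI counts per gene and barcode for 7 libraries, aligned to mm10, per the file headers. The submitters' processing notes name Cell Ranger 7.0.1 while the file headers give software version 4, and the counts were used as deposited by the authors. All barcodes were given, so cells were kept with at least 1000 UMIs, 500 genes and at most 15% mitochondrial UMIs. Of 51795 such cells, 3207 were removed as doublets with Scrublet, at an expected rate of 0.8% per 1000 cells. Cells were clustered with scanpy 1.11.5 (2000 variable genes without the members, 30 principal components, 15 neighbours, Leiden resolution 1) and clusters were named from 19 marker lists. Counts were summed per class and library, where a class had at least 5 cells in every library, and tested with edgeR 4.0.16 (quasi-likelihood, TMM, filterByExpr, Benjamini-Hochberg over all tested genes of a class and comparison, threshold 0.05). Each class had a fit of the 6 libraries other than UT and, for UT against IgG, a fit of all 7, and the groups of a fit shared its spread. BP, BPI, CD40 and UT share the 2 IgG libraries as control. The statistics were tested on simulated data. Free RNA was estimated from barcodes of 1 to 100 UMIs. Whole-tumour and class-order tests were exact, on log2(CPM + 1). DESeq2 1.42.0, other filters and left-out libraries were the alternatives. All members were described, and like genes were the 2 with the highest correlation among those with a mean of at least 20 CPM. The members and lists were chosen with earlier results of these data known. The NFpp10 model was not analysed here. The result of 1 gene of the adhesion lists is not reported here.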

Additional observations from a re-analysis of the deposited data

Results flagged for a closer look

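For 2 members the libraries of BP lay above both IgG libraries in some cell classes and below both in another, on the log2(CPM + 1) scale. These were 2 of the 8 members with a mean of at least 20 CPM in 2 or more of the 6 classes, and 18.1% of the 8153 genes that met this level did the same. The Icam1 difference, BP minus IgG, was 0.97 in T-like cells and 0.95 in monocyte/macrophage-like cells, and -3.83 in the wider endothelial-like class. That last value includes the 8 cells of BP 2 with no Icam1 UMI, where 3 counts would be 110 CPM. The Itga4 difference was 0.19 in monocyte/macrophage-like cells and -1.74 in the wider endothelial-like class, where BP 2 held 2 Itga4 UMIs. The difference between the classes was not tested for either member.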

How the results depend on the processing

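edgeR called 0 members over the 5 fitted classes in each comparison, and this count was also 0 with library totals only, doublets kept, at least 2000 UMIs per cell, at least 20 cells per library (4 classes) and free RNA subtracted, and with UT pooled with IgG where that was run. For BP against IgG it was 3 with no filter (Vcam1 in monocyte/macrophage-like and microglia-like cells, Itgal in microglia-like cells), 2 with the wider endothelial-like class, and 0 to 7 with 1 library left out. The share of all genes called is not given for DESeq2, for no filter or for left-out libraries. Those counts, here and below, are therefore not read as results. The 7 came without BP 2, when the endothelial-like class could be fitted and gave 4 of them. For BPI against IgG it was 1 by DESeq2 and 1 with no filter (Icam1 in monocyte/macrophage-like cells both times), and 0 to 2 with 1 library left out. For CD40 against IgG the range was 0 to 1. For BPI against BP it was 1 with no filter (Vcam1 in monocyte/macrophage-like cells) and 0 to 4 with 1 library left out. For UT against IgG it was 2 by DESeq2, 2 with no filter, 3 with the wider endothelial-like class, and 0 to 5 with 1 library left out (2 without BP 1, 5 without BP 2). In whole tumours 6 to 8 members did not overlap with 1 library left out (8 without IgG 2, 8 without BP 2). The count was 6 by level over the cells that are not tumour-like (Selp, Itgal, Itga4 and Itgb2 above, Icam2 and Sele below). At 2000 UMIs it was 3. With 1 library left out, 1 library stands against 2, which separate more easily. The share of all genes that did not overlap is not given for these alternatives, so these counts are not read as results. In the order of classes 0 of 68 pairs passed with a pseudocount of 10 and at 2000 UMIs, and 0 of 69 with free RNA subtracted. The pseudocount leaves the libraries of each pair as they were, so no pair could pass there either. The smallest exact p was again 0.0156 in these settings, and the lack of passing pairs is no sign that classes are alike. Without IgG 1, BP 2 and BPI there were 60 pairs, and the smallest exact p of 0.125 allowed none to pass. Over 29 single-member results, 262 of 311 alternatives kept direction and side of the threshold, 25 lost the call, 21 gained one and 3 turned. Most of these results were not called to begin with and could not lose a call. All 25 losses fell on calls of the wider endothelial-like class. In BP these were Vcam1 (6 of 10 alternatives) and Itga4 (6 of 10), and in UT Vcam1 (4 of 8), Selp (4 of 8) and Itga4 (5 of 8). Itgam in NK-like cells ran from -2.65 without IgG 1 to 0.0692 without IgG 2 in BPI, and from -2.57 to 0.16 in UT. Vcam1 in the wider endothelial-like class was -8.00 in BP without BP 1. The cause of the other changes was not tested. Same-numbered IgG and BP libraries did not deviate together (correlation -0.707 in tumour-like, -0.222 in monocyte/macrophage-like, -0.13 in NK-like, -0.0536 in T-like and 0.0235 in microglia-like cells). With the replicate number as a block 0 members were called in the 5 fitted classes. In the wider endothelial-like class, where Itga4 was called, the block gave 1.84 for Vcam1 (edgeR adjusted p = 0.238) and -2.26 for Itga4 (edgeR adjusted p = 0.0395). With the numbers crossed 1 member was called. Added after the data were seen were the wider endothelial-like class and its alternatives, the crossed pairing and the fit of IgG and BP alone. Few cells limit the endothelial-like, T-like and NK-like values of the IgG libraries and BP 2.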

Other observations

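Some cell classes were too rare to compare between groups and are given as values. Dendritic-like cells reached 20 cells in UT (28) and BP 1 (59), and their cluster was led by genes that include Ccr7 and Ccl22, which mark migrating dendritic cells. They held Itga4 at 477 CPM in UT and 894 in BP 1, Itgb1 at 380 and 486 and Icam1 at 359 and 325, while Itgal (16.1 and 0), Itgb2 (10.7 and 8.33) and Itgam (0 in both) were low. The subunits of VLA-4 were thus far above those of LFA-1 and Mac-1 in these cells. Plasmacytoid dendritic-like cells, with 3 libraries, held Itgb2 at 126 to 142 CPM, Itgal at 60.8 to 199 and Itga4 at 113 to 365.

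Neutrophil-like cells reached 20 cells in BP 1 alone (26 cells). There Icam1 stood at 964 CPM from 51 UMIs, Itgam at 567, Itga4 at 510, Itgal and Itgb2 at 359 each, and Itgb1 at 18.9 from 1 UMI. Mast or basophil-like cells of BP 1 (48 cells) held Itgam at 331 CPM and Selp at 47.3 CPM from 9 UMIs. B-like cells of 3 libraries held Itga4 at 131 to 215 CPM and no Itgam UMI.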
